A study of Bos taurus with 6 samples.

Results

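The receptors through which cells sense progesterone were measured in bovine cumulus cells, the layer of somatic cells around the oocyte. The 6 genes were the nuclear receptor PGR, the membrane-associated proteins PGRMC1 and PGRMC2, and the membrane receptors PAQR5, PAQR7 and PAQR8. Every probe whose gene symbol on the platform, or its current synonym, was one of these names was taken, which gave 11 of 43794 gene probes and 6 of 15214 named genes. Of these, 10 probes and 5 genes passed the filter on dim probes and were tested, and the only probe of PAQR7 did not pass it.

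All cells came from Holstein cows whose ovaries were stimulated with follicle-stimulating hormone (FSH) over 3 days and were sampled 68 h after FSH ended. The treated condition also had cetrorelix at 12 mg per day for 5 days, begun on day 2 of FSH, and the control condition had no other treatment. The labels call cetrorelix an agonist of gonadotropin-releasing hormone, whereas it is known as an antagonist, given here to lower luteinizing hormone (LH). The study asked how gene expression in cumulus cells changes when basal LH is inhibited. Each condition had 3 biological replicates, and each replicate was hybridized on 2 two-colour arrays with the dyes swapped, so that 6 arrays gave 3 replicate values. The labels name 6 cows in all and do not say which of them stand behind a replicate, so the p-values measure only the spread between these replicates, which may be partly technical.

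Progesterone acts through several kinds of receptor. PGR is a transcription factor that binds the hormone inside the cell; in granulosa cells of the mural wall it is induced by the LH surge, and in mice ovulation requires it. PGRMC1 and PGRMC2 belong to the membrane-associated progesterone receptor (MAPR) family of heme-binding proteins, and PGRMC1 takes part in progesterone's protection of granulosa cells from death as well as in sterol metabolism. PAQR7, PAQR8 and PAQR5 are the membrane progesterone receptors alpha, beta and gamma, which signal from the cell surface through G proteins and kinases.

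No receptor probe passed the test for a difference between cetrorelix and control. With limma and Benjamini-Hochberg adjustment over all 32125 tested probes, 0 of the 10 receptor probes reached an adjusted p under 0.05, against 0.0125% of all tested probes (4 probes, all higher after cetrorelix). Those 4 probes had log2 ratios of cetrorelix over control from 1.74 to 2.08, whereas the receptor ratios lay within 0.56 of 0. In the fit of the 6 single arrays with the replicate as a block, 234 probes of the array passed, or 0.728%, and again 0 of the 10. The correlation estimated within a replicate was -0.0259, so that fit counted both arrays of a dye swap nearly as separate samples, although they share RNA. At an unadjusted p under 0.05, 2 of the 10 receptor probes were lower, both of PGRMC1, where 5.82% of all tested probes were lower. At the same threshold 1 was higher, of PGRMC2, where 5.29% of all were higher. Because 3 probes share PGRMC1 and another 3 share PGRMC2, these counts do not rest on independent genes. Among tested genes read from their brightest probe the median log2 ratio of cetrorelix over control was -0.01. The share of the 12398 genes with a lower ratio was 3.98% for PGRMC1, 8.18% for PAQR8, 10.2% for PGR, 36.8% for PAQR5 and 61.1% for PGRMC2.

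**Figure D1:**
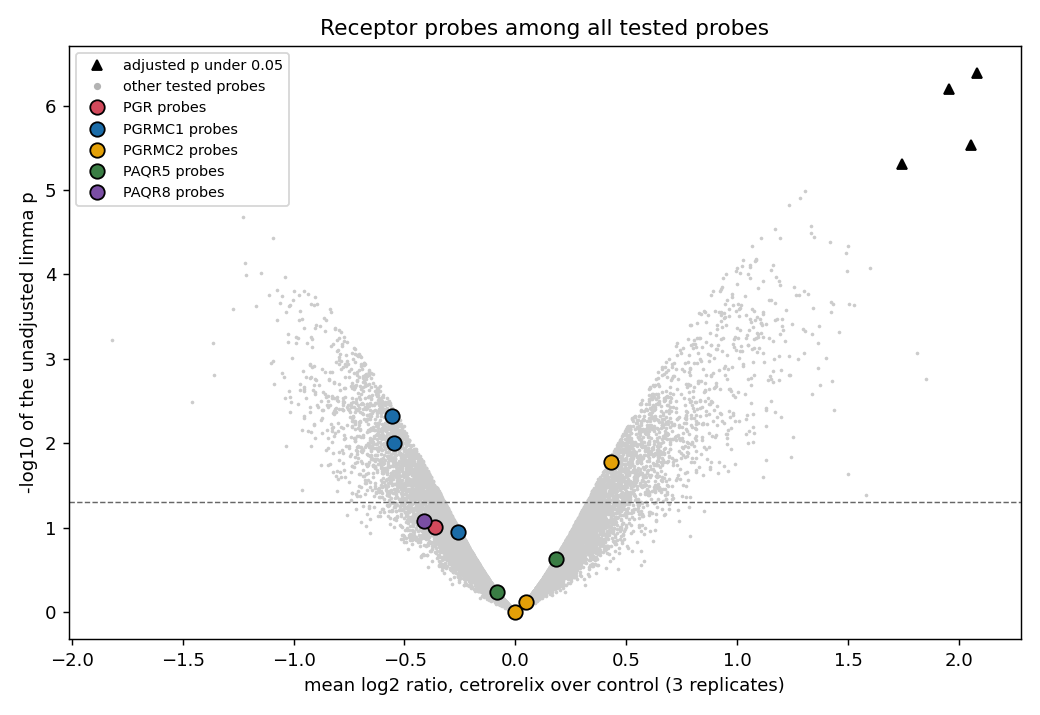
Mean log2 ratio of cetrorelix over control (x axis, 3 replicates) against -log10 of the unadjusted limma p (y axis) for 32125 tested probes, with the 10 receptor probes coloured by gene and a dashed line at the 0.05 threshold. Both PGRMC1 probes above the line lie left of 0, 1 PGRMC2 probe lies above it on the right, and the 4 probes past the adjusted threshold (triangles) are not receptor probes.

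The arrays differed in quality, and this bears on the dim receptor probes. The median raw probe intensity was between 179 and 226 in Cy5 and between 220 and 270 in Cy3, and 40.9% to 70.9% of probes were above background in the cetrorelix channel against 54.8% to 69.7% in the control channel. The lowest of these shares came from replicate 2 with cetrorelix in Cy5. Arrays of one dye orientation lay on one slide, so dye and slide cannot be told apart. Across all tested probes the arrays of one orientation correlated at r = 0.273 to 0.667, while the swapped arrays of replicates 1, 2 and 3 correlated at 0.079, 0.258 and -0.127. The cell type label was checked against markers: all 10 listed cumulus and granulosa genes were measured, and 9 of them, including FSHR, AMH, INHA and CYP19A1, were above background in both conditions on every array. Of the 7 listed endothelial and 7 listed oocyte genes, all on the array, 6 and 3 were measured, which here means having a tested probe. Of either list 0 were above background on every array. Of other cell types, 2 of 6 measured leukocyte genes (PTPRC and CD68), 2 of 5 theca and stroma genes (ACTA2 and COL1A1) and 2 of 4 erythrocyte genes (AHSP and GYPC) were above background in both conditions on every array.

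PGR was above background on all 6 arrays in both conditions. Its log2 ratios of cetrorelix over control in replicates 1, 2 and 3 were -0.43, -0.12 and 0.12 where Cy5 marked the cetrorelix RNA. Where Cy3 marked it they were -0.90, -1.13 and 0.29. Replicates 1 and 2 were therefore below 0 in both dye orientations, and replicate 3 was above 0 in both. The normalized log2 intensity of the PGR probe was 9.67, 9.67 and 10.17 in the cetrorelix samples and 10.33, 10.30 and 9.97 in the controls, and the groups overlapped because replicate 3 ran the other way. The mean log2 ratio was -0.36 ± 0.49 (SD, n = 3), a fold of 0.779, with a 95% confidence interval of the log2 ratio from -0.81 to 0.08 and a limma adjusted p of 0.591. Leaving out replicates 1, 2 and 3 in turn gave -0.21, -0.23 and -0.64, with adjusted p of 0.916, 0.99 and 0.101. In these bulk samples, fewer cells of a type and less RNA per cell cannot be told apart.

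PGRMC1 was below 0 on every array with both of its brighter probes. Its brightest probe, EMBV3_07237, was above background on all 6 arrays in both conditions. The log2 ratios were -0.13, -0.81 and -0.38 with cetrorelix in Cy5 and -0.69, -0.66 and -0.68 with cetrorelix in Cy3. All 6 arrays thus had less PGRMC1 signal in the cetrorelix channel than in the control channel. The log2 level was 11.92, 11.54 and 11.64 after cetrorelix and 12.33, 12.27 and 12.17 (replicates 1 to 3) in the controls, so the groups did not overlap. Replicate by replicate the ratios averaged -0.41, -0.73 and -0.53, with a mean of -0.56 ± 0.16 (SD, n = 3), a fold of 0.680 (95% confidence interval 0.539 to 0.858). This interval, like the others given here, is not adjusted for the number of probes tested. The limma adjusted p was 0.194, and 0.0825 with the replicate as a block.

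A second PGRMC1 probe gave nearly the same mean. EMBV3_42040, also above background everywhere, read -0.24, -1.06 and -0.67 with cetrorelix in Cy5 and -0.30, -0.73 and -0.28 with cetrorelix in Cy3. Every array was again below 0, and the levels of 9.05 ± 0.21 after cetrorelix and 9.59 ± 0.26 in the controls (SD, n = 3 each) did not overlap. The mean log2 ratio was -0.55 ± 0.32 (SD, n = 3), a fold of 0.685, with a limma adjusted p of 0.243. The replicate order was the same for both probes, with replicate 2 the lowest and replicate 1 nearest to 0, and the ratios of the pair correlated at r = 0.47 over the 6 shared arrays.

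The third PGRMC1 probe, EMBV3_06817, was dim. It was above background on 1 array in the cetrorelix channel and on 4 in the control channel, and its ratios ranged from -0.55 to 0.00. The mean log2 ratio was -0.26 ± 0.16 (SD, n = 3; limma adjusted p 0.617), with levels of 7.59 ± 0.15 and 7.85 ± 0.05. It passed the filter on dim probes only through the control channel, where it was brighter, so its direction adds nothing to that of the other probes. The other 9 tested receptor probes passed in both conditions. Of these 9, 3 were below 0 in 3 of 3 replicates (both brighter PGRMC1 probes and a PAQR5 probe), as were 16.0% of all tested probes. Every cetrorelix level was below every control level for 2 of the 9, both of PGRMC1, and for 7.51% of all tested probes. Ratios below 0 on 6 of 6 arrays were found for the same PGRMC1 pair and for 4.21% of all tested probes.

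**Figure D2:**
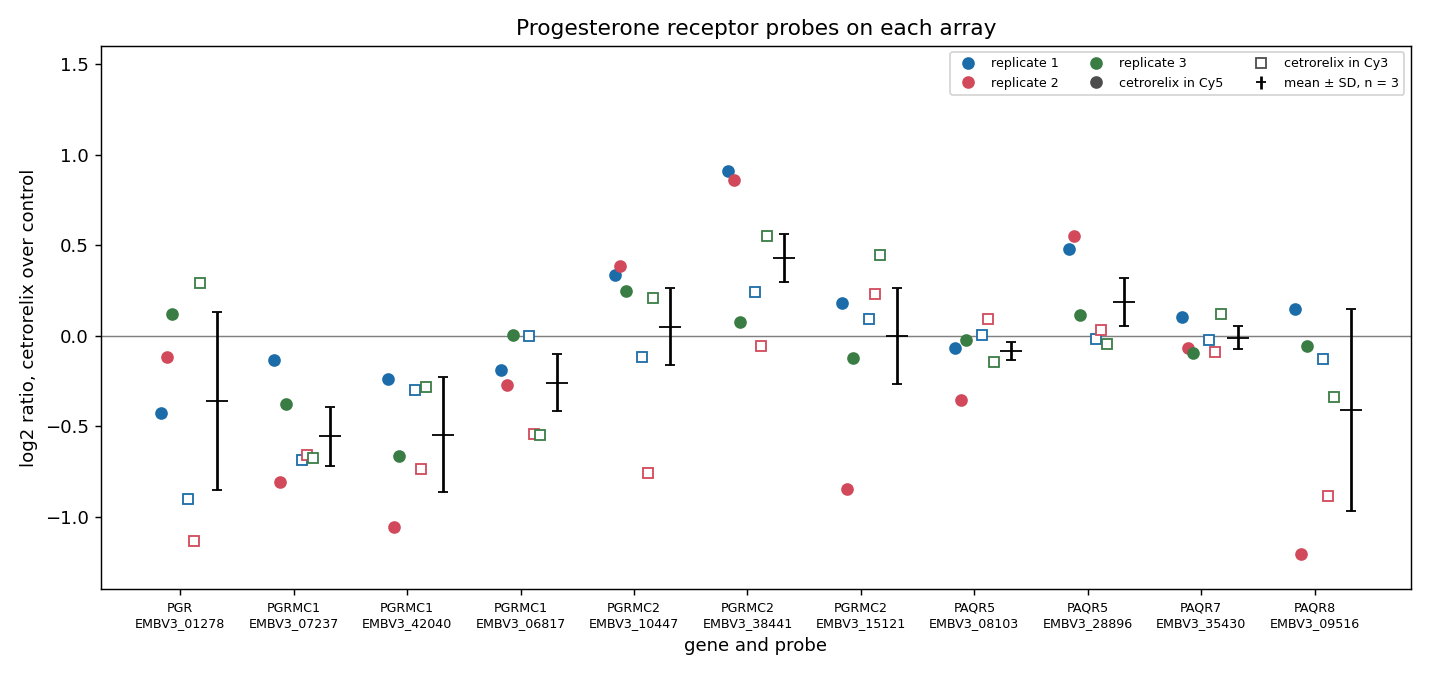
Log2 ratio of cetrorelix over control (y axis) of each of the 11 receptor probes (x axis) on each array, with filled circles for cetrorelix in Cy5, open squares for cetrorelix in Cy3, colours for the replicates and black bars for the mean ± SD of the 3 replicate averages. The points of PGRMC1 EMBV3_07237 and EMBV3_42040 are all below 0, those of PGR split between replicate 3 above 0 and the others below, and PAQR8 has replicate 2 far below the rest.

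PGRMC2, the paralog of PGRMC1, gave different values from probe to probe. Its brightest probe, EMBV3_10447, was above background on all arrays and read 0.33, 0.38 and 0.25 with cetrorelix in Cy5 but -0.12, -0.76 and 0.21 with cetrorelix in Cy3. The sign followed the dye in replicates 1 and 2, and the difference between orientations was 0.54 (adjusted p 0.243 over all tested probes in the limma fit with an orientation term). The replicate averages of 0.11, -0.19 and 0.23 had a mean of 0.05 ± 0.21 (SD, n = 3; limma adjusted p 0.970). The confidence interval of -0.30 to 0.40 still allowed a difference in either direction.

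The second PGRMC2 probe was above 0 in 3 of 3 replicates, as were 2 of the 10 receptor probes and 14.2% of all tested probes. EMBV3_38441 read 0.91, 0.86 and 0.08 with cetrorelix in Cy5 and 0.24, -0.06 and 0.55 with cetrorelix in Cy3, so 5 of 6 arrays were above 0. Its log2 levels were 8.69, 8.31 and 8.21 after cetrorelix against 8.11, 7.91 and 7.89 in the controls. These did not overlap, in the direction that 5.63% of all tested probes shared, and the probe was above background on 6 arrays with cetrorelix RNA and on 4 with control RNA. The mean log2 ratio was 0.43 ± 0.13 (SD, n = 3), a fold of 1.35, with a limma adjusted p of 0.290.

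The third PGRMC2 probe, EMBV3_15121, averaged 0.14, -0.31 and 0.16 in replicates 1 to 3. Its single arrays ranged from -0.85, on replicate 2 with cetrorelix in Cy5, to 0.45. The confidence interval of its mean ran from -0.36 to 0.36 (limma adjusted p 0.998). Over the 6 arrays the brightest PGRMC2 probe correlated at r = 0.74 with EMBV3_38441 and at -0.39 with EMBV3_15121. The sources used here do not give the stretch of transcript that a probe reads, so the probes of a gene are listed singly.

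Measured on the same arrays, the ratio of PGRMC1 was below that of PGRMC2 in each replicate when both were read from their brightest probes. The PGRMC1 minus PGRMC2 difference of log2 ratios was -0.52, -0.55 and -0.75 in replicates 1 to 3, with a mean of -0.61 ± 0.13 (SD, n = 3). On single arrays it ranged from -1.19 to 0.10, and the one value above 0 came from replicate 2 with cetrorelix in Cy3. This pair was chosen after its values were seen, so the difference is a description and was not tested.

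**Figure D3:**
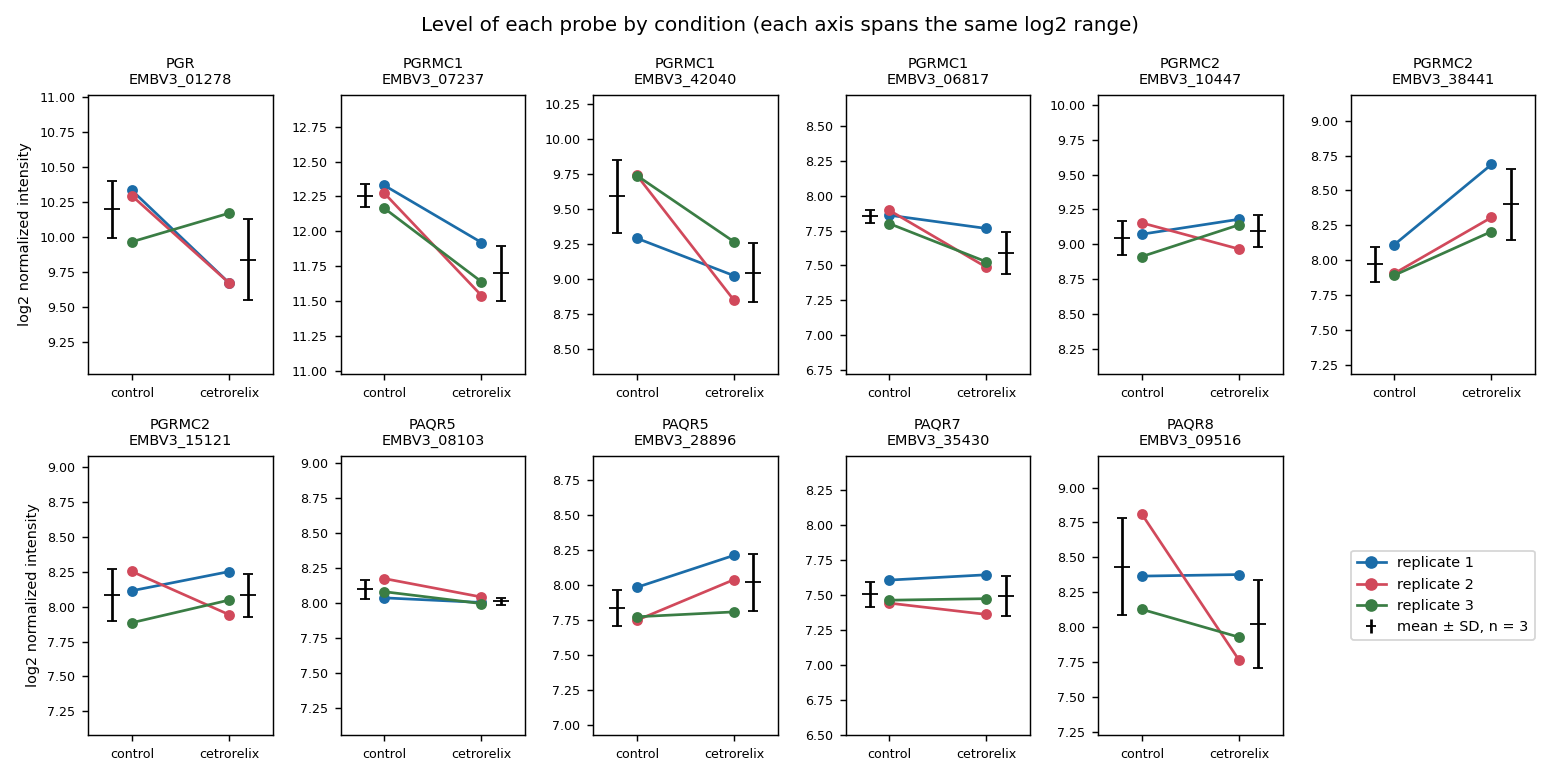
Normalized log2 intensity (y axis) of each receptor probe in control and cetrorelix samples (x axis), with a coloured line for each of the 3 replicates and black bars for the mean ± SD, every panel spanning the same log2 range. All 3 lines slope down for PGRMC1 EMBV3_07237 and EMBV3_42040 and up for PGRMC2 EMBV3_38441, while those of PGR cross. The direction of the dim PGRMC1 probe EMBV3_06817 adds nothing, since it passed the filter only through the control channel. Levels of different panels cannot be set against each other, because probes differ in how strongly they bind.

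PAQR8, membrane progesterone receptor beta, took its low mean mainly from one replicate. The log2 ratios were 0.15, -1.20 and -0.06 with cetrorelix in Cy5 and -0.13, -0.89 and -0.34 with cetrorelix in Cy3. Replicate 2 was the lowest in both orientations, and the averages of 0.01, -1.05 and -0.20 had a mean of -0.41 ± 0.56 (SD, n = 3), with a limma adjusted p of 0.549. Levels were 8.38, 7.77 and 7.93 after cetrorelix and 8.37, 8.81 and 8.13 in the controls. The groups overlapped, and the highest control level and the lowest cetrorelix level were both those of replicate 2. Without replicate 2 the mean was -0.09. The probe was above background on 4 arrays in the cetrorelix channel and on all 6 in the control channel. Its cetrorelix channel was not above background on replicate 2 with cetrorelix in Cy5, the array at -1.20, or on replicate 3 with cetrorelix in Cy3.

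PAQR5, membrane progesterone receptor gamma, was close to 0. Its brighter probe, EMBV3_08103, averaged -0.03, -0.13 and -0.08 in replicates 1 to 3. The mean was -0.08 ± 0.05 (SD, n = 3; limma adjusted p 0.932), with a confidence interval from -0.40 to 0.24. The other probe, EMBV3_28896, averaged 0.23, 0.29 and 0.03 (limma adjusted p 0.778), with 0.48, 0.55 and 0.11 where cetrorelix RNA was in Cy5 and values between -0.04 and 0.03 in the other orientation. The ratios of the pair correlated at r = -0.64 over the 6 arrays. Both probes were near background: the first was above it on 4 arrays with cetrorelix RNA and 6 with control RNA, the second on 4 and 4.

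PAQR7, membrane progesterone receptor alpha, was not above background except on 1 array in the control channel. Its probe EMBV3_35430 was above background on 0 of 6 arrays in the cetrorelix channel and on 1 of 6 in the control channel. The log2 ratios ranged from -0.10 to 0.12 and the levels were 7.49 ± 0.14 and 7.50 ± 0.09 (SD, n = 3 each), so no fold is given and no test was made.

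Across the 6 arrays the receptors did not follow one common pattern. Read from the brightest probes, PGR and PGRMC2 correlated at r = 0.80 and PGRMC1 and PAQR8 at 0.76. PGRMC2 and PAQR5 correlated at -0.72, and PGR and PGRMC1 at 0.10. These are descriptions over 6 arrays that share RNA extracts, slides and dye orientation. Among 12397 other genes, those with the ratios most like PGR were DERL1 (r = 0.98), NCAPG (0.98) and GUCA1A (0.97), and 67 genes had an r over 0.9. ESM1, DDT and SEC11C were most like PGRMC1 (0.99, 0.98 and 0.98), and ZNF354C, KCTD20 and TKDP1 were most like PGRMC2 (0.99, 0.99 and 0.98). MSMB, VGF and ATP8B1 were most like PAQR5 (1.00, 0.99 and 0.99), and HOXA9, SLC27A2 and CYP26A1 were most like PAQR8 (each 0.99). A like pattern did not mean a like size, since ESM1 had a mean log2 ratio of 0.03 ± 0.14 (SD, n = 3) beside the -0.56 of PGRMC1.

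The genes around the receptors were read from 10 lists, given as the progesterone pathway from its synthesis to its targets. Some listed genes passed the filter on dim probes in one condition only, so signs and medians are given over the genes that passed it in both, and they describe those genes alone. In none of the lists did a gene pass an adjusted p under 0.05 in limma, where 0.00807% of all 12398 genes did. At an unadjusted p under 0.05, 7.17% of genes read from their brightest probes were higher and 8.55% were lower, and each list had 0 to 2 such genes in either direction.

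Of the genes that make progesterone, 8 of the 9 measured were above 0 and 1 was below, with a median log2 ratio of 0.07. The sign did not hold in every replicate: the list median was -0.19, 0.28 and 0.28 in replicates 1, 2 and 3. CYP11A1, which cleaves the cholesterol side chain, was at 1.01 ± 0.85 (SD, n = 3; limma adjusted p 0.202), while FDX1, the ferredoxin that passes it electrons, was at -0.55 ± 0.33 (adjusted p 0.247). With cetrorelix in Cy5 and in Cy3, CYP11A1 was at 0.59 and 1.43 and FDX1 at -0.17 and -0.92. The mitochondrial cholesterol-binding protein TSPO was at 0.31 ± 0.23 and the lipoprotein receptor SCARB1 at 0.19 ± 0.35. Of 5 genes that inactivate progesterone or related steroids, 4 were below 0 and 1 above. AKR1B1, an aldo-keto reductase, was at -0.34 ± 0.13 and below 0 on 6 of 6 arrays (limma adjusted p 0.420). HSD17B4, SRD5A3 and DHRS9 were at -0.34 ± 0.45, -0.16 ± 0.27 and -0.12 ± 0.20. Replicate 2 carried most of these values, and without it they were -0.078, -0.005 and -0.005.

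The chaperones that hold PGR ready to bind hormone had the lowest adjusted p of these lists. PTGES3, the HSP90 co-chaperone p23, was below 0 on 6 of 6 arrays, with a log2 ratio of -0.83 ± 0.07 (SD, n = 3). Its limma adjusted p was 0.0833, and its 3 probes spanned -0.83 to -0.07. With the replicate as a block its limma adjusted p was 0.0269, from the fit that counted swapped arrays nearly as separate samples. HSPA4 was at 0.49 ± 0.26 (adjusted p 0.267), the HSP40 protein DNAJB1 at 0.43 ± 0.59 and the constitutive HSP70 protein HSPA8 at -0.30 ± 0.51. With cetrorelix in Cy5 and in Cy3, HSPA4 was at 0.86 and 0.11, DNAJB1 at -0.09 and 0.95, and HSPA8 at 0.15 and -0.75. In all, 6 of the 11 chaperone genes were above 0 and 5 below, with 1 each higher and lower at an unadjusted p under 0.05. Of 8 PGR coregulators 2 were above 0 and 6 below. CITED2 was at -0.63 ± 0.78 and at -0.18 without replicate 2, the coactivator NCOA3 at -0.29 ± 0.13 with all 6 arrays below 0, the acetyltransferase CREBBP at -0.28 ± 0.40 and the Mediator subunit MED1 at 0.16 ± 0.20.

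Genes known as PGR targets in the ovulatory follicle, mostly from mouse work, lay on both sides of 0: 5 of 11 were above and 6 below, with a median of -0.01. PTGS2, ADCYAP1 and ZBTB16 reached the filter in the controls only and are not counted. VEGFA, an angiogenic growth factor, was at 0.75 ± 0.28 (SD, n = 3) and above 0 on 6 of 6 arrays, as 3.04% of all tested probes were, with a limma adjusted p of 0.129 and of 0.0438 with the replicate as a block. Its second probe was at 0.29. The protease ADAMTS1 was at 0.56 ± 0.31, likewise above 0 on every array (adjusted p 0.230). HIF1A was at -0.39 ± 0.43, with -0.02 where cetrorelix RNA was in Cy5 and -0.75 where it was in Cy3. The nuclear receptor PPARG was at -0.33 ± 0.68. Of 6 genes of LH and cAMP signalling upstream of PGR, 2 were above 0 and 4 below. PRKAR1A, a regulatory subunit of protein kinase A, was at 0.94 ± 0.52 and above 0 on all 6 arrays (adjusted p 0.128). The transcription factor SP3 was at -0.50 ± 0.51, FSHR, the FSH receptor, at -0.37 ± 0.37 and ATF1, a cAMP-responsive transcription factor, at -0.47 ± 0.66. The 3 probes of SP3 spanned -0.50 to 0.095, and the 3 of ATF1 spanned -0.47 to 0.42.

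Among relatives and partners of PGRMC1, 3 of 7 measured genes were above 0 and 4 below. TMEM97, the sigma-2 receptor that forms a complex with PGRMC1, was at -0.63 ± 0.20 (SD, n = 3; limma adjusted p 0.167). The sterol demethylase CYP51A1, a cytochrome P450 of the kind PGRMC1 binds, was at -0.70 ± 0.35 (adjusted p 0.172), with its 3 probes from -0.70 to -0.27. SERBP1, an RNA-binding partner of PGRMC1, was at 0.43 ± 0.45 with a second probe at 0.02, and the heme-synthesis enzyme FECH was at 0.16 ± 0.09. Of 6 other PAQR genes 4 were above 0 and 2 below, with a median of 0.13. PAQR3 was at 0.29 ± 0.17, PAQR4, which reached the filter after cetrorelix only, at 0.22 ± 0.23, and the adiponectin receptors ADIPOR1 and ADIPOR2 at 0.24 ± 0.15 and 0.29 ± 0.56.

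Of 7 genes for G proteins and kinases that membrane progesterone receptors act through, 3 were above 0 and 4 below. The inhibitory G protein subunit GNAI3 was at -0.54 ± 0.07 (SD, n = 3; limma adjusted p 0.190). By orientation GNAI3 was at -0.23 in Cy5 and -0.85 in Cy3, with 1 of 6 arrays above 0. Its relative GNAI2 was at 1.13 ± 1.26, from replicate averages of 1.84, 1.87 and -0.33 (adjusted p 0.286). PIK3CA, a catalytic subunit of PI 3-kinase, was at -0.44 ± 0.23 with 6 of 6 arrays below 0, and the stimulatory subunit GNAS was at 0.20 ± 0.03. The GNAS ratio was 0.56 in the Cy5 and -0.16 in the Cy3 orientation, and its 3 probes spanned -0.55 to 0.20. Of 6 other steroid receptors listed, 4 were on the array. Only ESR2 and NR3C1 had a tested probe, at -0.25 ± 0.12 and 0.24 ± 0.51. Replicate 2 also carried much of several other list values. Without it they were 0.13 for DNAJB1, -0.025 for HSPA8, -0.12 for CREBBP, -0.005 for PPARG, -0.12 for ATF1 and 0.02 for ADIPOR2. The summed level of the 5 measured theca and stroma markers was 9522 to 13020 after cetrorelix and 7271 to 8706 in the controls, as normalized intensity, while that of the 10 cumulus and granulosa markers was 187300 to 214100 and 183300 to 206700. For the 6 leukocyte and 4 erythrocyte markers the sums were 1573 to 1617 against 1453 to 1656 and 1170 to 1566 against 1099 to 1199. Of the theca and stroma markers, looked at singly after the sums were seen, ACTA2, a smooth muscle actin, was at 0.48 ± 0.16, with -0.11 in the Cy5 and 1.06 in the Cy3 orientation. DES, above background on 3 arrays in each condition, was at 0.21 ± 0.04 and above 0 on 5 of 6 arrays. COL1A1 was at 0.06, the theca enzyme CYP17A1 at -0.02, INSL3 at -0.004, and the list median was 0.06. Their part in the values of the receptors and their pathway was not tested.

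**Figure D4:**
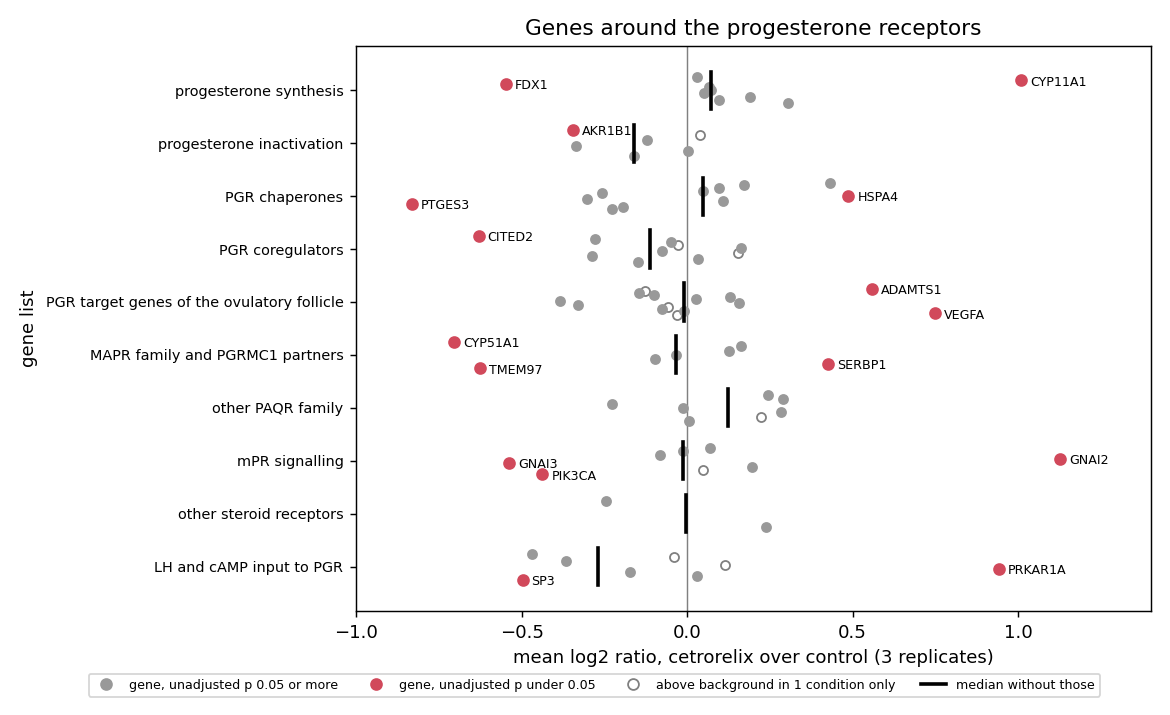
Mean log2 ratio of cetrorelix over control (x axis, 3 replicates) of each measured gene in 10 gene lists (y axis), with red for genes at an unadjusted limma p under 0.05 open circles for genes above background on 3 or more arrays in one condition only, and a black line for the median of the other genes. The medians lie between -0.27 and 0.13, and single genes such as CYP11A1 at 1.01 and PTGES3 at -0.83 stand far from them.

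The ratios of PGR, PGRMC1 and PAQR8 stayed below 0 under each processing alternative that gave them a value. PGR ranged from -0.80 to -0.14, the brightest PGRMC1 probe from -0.87 to -0.44 and PAQR8 from -0.62 to -0.09. For PGRMC1 the limma adjusted p ranged from 0.0669, on the arrays with cetrorelix in Cy3 alone, to 0.647. The brightest PGRMC2 probe ranged from -0.22 to 0.32, the limits being the Cy3 and the Cy5 orientation alone. No orientation term of a receptor probe passed an adjusted p under 0.05 (lowest 0.243), where 6.61% of all tested probes did.

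**Figure D5:**
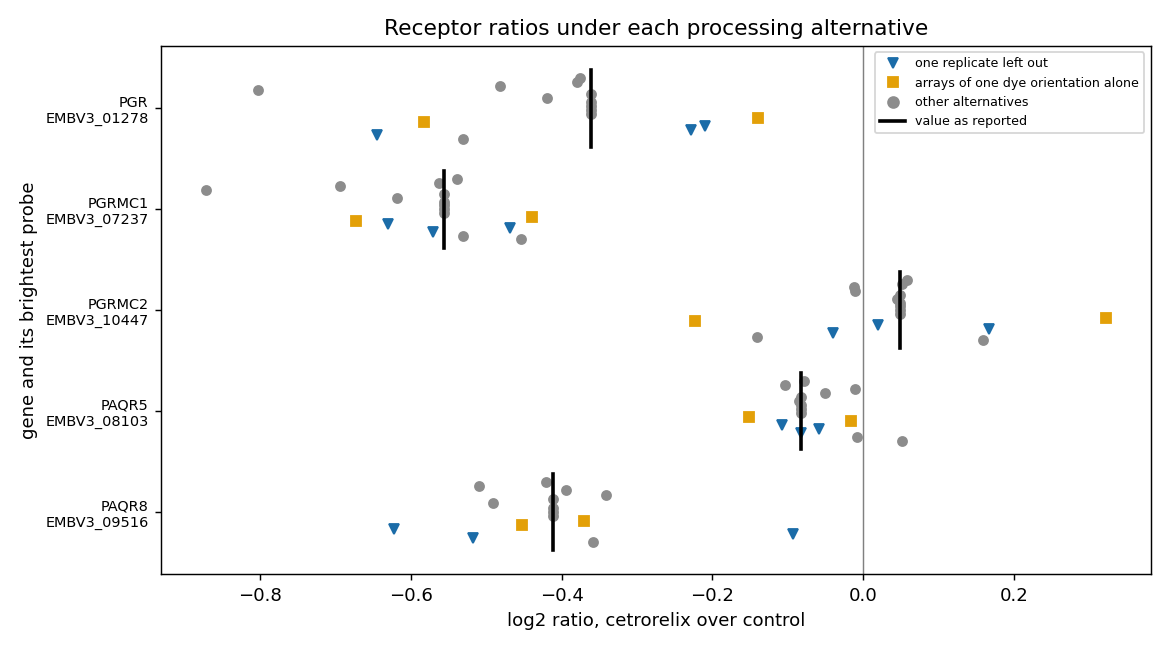
Log2 ratio of cetrorelix over control (x axis) of the brightest probe of each tested receptor gene (y axis) under each processing alternative, with triangles for leaving out a replicate, squares for arrays of a single dye orientation and a black line for the value as reported. PGR, PGRMC1 and PAQR8 keep to the left of 0, whereas PGRMC2 spans -0.22 to 0.32.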

How the data were processed

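Cumulus RNA was amplified and labelled with Cy3 or Cy5 on 6 two-colour arrays, per the labels' protocols. The deposited scanner tables hold the raw median intensity and the local background intensity of each spot and channel, per the file headers. The authors also deposited normalized ratios on a log2 scale, which ran as Cy5 over Cy3, and series values, which equalled them after each array was turned to one direction (largest gap 5e-06). Limma is named in the submitters' processing notes, with no version or settings, so the sources used here do not give the authors' normalization.

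From the scanner intensities, background was corrected with normexp (offset 50) and ratios were normalized by loess within each array, with control spots at weight 0. A channel was above background where it exceeded the 95th percentile of 153 negative controls. Probes that reached this on 3 or more arrays in either condition and were measured on every array were tested (32125 of 43794; 233 more had a marked spot on some array). Each ratio was expressed as cetrorelix over control, the dye-swap pair of a replicate was averaged, and limma 3.58.1 (R 4.3.3, lmFit and eBayes, two-sided) tested the 3 averages against 0, and p-values were adjusted by Benjamini-Hochberg across the tested probes. Levels are normalized log2 intensities per channel. Arrays have no read depth, and their number limits the precision. The code was tested on simulated data.

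The design text pairs the arrays as dye swaps. Arrays of the same number were taken as a pair. Their deviations from the orientation means correlated at 0.229, 0.402 and 0.422. With 3 arrays per orientation such deviations are not independent of each other, so they do not settle the pairing. The fit with the replicate as a block used all 6 arrays (estimated correlation -0.0259). At that value both arrays of a pair count nearly as separate samples, so its p-values hardly account for the shared RNA.

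Of the gene symbols on the platform, 20068 matched a current symbol, 1644 a synonym, and 78 were kept as listed. Genes with several probes were represented by the brightest. The text names all receptor probes, the up to 4 genes of lowest p in each list unless any passed the test, and the 3 genes most correlated with each receptor. The receptors and the lists were chosen with earlier results of these data known. Alternatives in background correction, scaling, filter, block, dye orientation and replicates were run. No sequences or coordinates were used.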

Additional observations from a re-analysis of the deposited data

Results flagged for a closer look

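The ratio of ADIPOR1, an adiponectin receptor of the PAQR family, had opposite signs in the dye orientations on every array. Its mean log2 ratio was -0.20 where Cy5 marked the cetrorelix RNA and 0.69 where Cy3 did, a difference of -0.90 (limma adjusted p 0.026 for the orientation term). GNAS, the stimulatory G protein subunit, also had opposite signs on every array, with 0.56 in Cy5 and -0.16 in Cy3, a difference of 0.72 (limma adjusted p 0.07). Orientation and slide cannot be told apart.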

How the results depend on the processing

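In every alternative run, 0 receptor probes passed an adjusted p under 0.05. The number of all probes past it was 4 as reported. It was 246 with a normexp offset of 10, 0 with scaling between arrays, 9 with the authors' values, 7 with no filter on dim probes and 15 with only probes above background everywhere. With the replicate block it was 234, with an orientation term and the block 768, and with arrays of cetrorelix in Cy5 or Cy3 alone 516 or 1134. Leaving out a replicate gave 0 to 1254, and taking replicate 2 from its Cy3 array alone gave 0; this last alternative was chosen after seeing the data, as were all alternatives to the counts at an unadjusted p and the list medians over genes that passed the filter in both conditions. Receptor probes lower at an unadjusted p under 0.05 numbered 2 as reported, 1 on the Cy5 arrays alone and 1 to 4 without a replicate. They numbered 3 without background correction and with the offset of 10, median centring or the authors' values. The number was also 3 with the replicate block, with or without an orientation term, and on the Cy3 arrays alone. Those higher numbered 0 with scaling, on the Cy3 arrays alone and with replicate 2 from its Cy3 array, and 0 to 1 without a replicate. The strictest filter also gave 0, because it left out PGRMC2 EMBV3_38441, the one such probe, before the test. The brightest PGRMC2 probe turned to -0.013 with median centring, -0.011 with scaling, -0.22 on the Cy3 arrays, -0.04 without replicate 3 and -0.14 with replicate 2 from its Cy3 array, within -0.04 to 0.167 without a replicate. PGRMC2 EMBV3_15121 turned to 0.037 without background correction, 0.046 with median centring, 0.043 with scaling, 0.038 with the authors' values, 0.26 on the Cy3 arrays, 0.15 without replicate 2 (-0.086 to 0.15 without a replicate) and 0.18 with replicate 2 from its Cy3 array. PAQR5 EMBV3_08103 turned to 0.051 as a mean of the gene's probes, and EMBV3_28896 to -0.011 on the Cy3 arrays. On the Cy5 arrays alone HSD17B4 turned to 0.011, DNAJB1 to -0.09, HSPA8 to 0.15, FECH to -0.057 and ADIPOR1 to -0.20. GNAS turned to -0.16 on the Cy3 arrays and to -0.19 as a mean of its probes, and ATF1 to 0.034 as a mean of its probes. The count past the adjusted threshold was 1 with the replicate block for the chaperones (PTGES3) and for the PGR targets (VEGFA), and 0 to 1 without a replicate for these lists and for the PGRMC1 partners, the membrane receptor signalling genes and the LH and cAMP genes. Of 614 values of 38 list genes, 584 kept both sign and side of the threshold, 22 of 9 genes passed it, and 8 of 7 genes turned sign. The causes of these changes were not tested. Signal near background limits PAQR5, PAQR7, PAQR8 and the dim PGRMC1 and PGRMC2 probes.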
